A study of Mus musculus with 20 samples.

Results

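Of the 53801 genes in the count tables of a mouse hypothalamus RNA-seq series, 36 encode glutamate receptor subunits or the scaffold proteins that hold these receptors at the synapse. They were taken as a list of symbols and found by Ensembl identifier, and 24 encode receptor subunits and 12 encode scaffolds. The receptor genes are 4 of the AMPA type (Gria1 to Gria4), 5 of the kainate type (Grik1 to Grik5), 7 of the NMDA type (Grin1, Grin2a to Grin2d, Grin3a and Grin3b), the delta receptor gene Grid1 and 7 metabotropic receptor genes (Grm2 to Grm8). The scaffold genes are Grip1 and Grip2, Dlg1 to Dlg4, Shank1 to Shank3 and Homer1 to Homer3. A total of 35 of the 36 had enough counts to be tested, among 22181 tested genes. Grm6, the receptor of retinal ON bipolar cells, was not tested, since it had 0 to 4 counts per library and 22 counts in all.

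The study compared mice that lack both Magel2 and Ndn with C57BL/6J wild types. Magel2 and Ndn are neighbouring imprinted genes of the Prader-Willi region. Hypothalamic RNA, freed of ribosomal RNA, gave paired-end libraries, 5 in each of 4 groups: KO_night, KO_day, WT_night and WT_day. KO is the deletion of both genes (mice named MADIN in the series text, "knokdown" in the genotype field), and WT is C57BL/6J. Night is 18 h and day is 6 h after light on, in a 12-h light and 12-h dark cycle with food and water always available, in all 4 groups. Age and sex are not given in the labels used here. The labels do not say that the libraries of a group come from separate mice, so p-values measure the spread between these samples.

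Ionotropic glutamate receptors are ligand-gated channels. AMPA receptors carry fast excitation, NMDA receptors need glutamate and depolarisation together, and kainate receptors act on both sides of the synapse. Metabotropic glutamate receptors signal through G proteins: Grm5 belongs to the group that couples to phospholipase C, and the other metabotropic genes here encode receptors that lower cyclic AMP and often sit on presynaptic terminals. PSD-95 (Dlg4) and its relatives bind receptor tails, Shank proteins link them to deeper layers of the postsynaptic density, Homer proteins tie Shanks to group I metabotropic receptors, and Grip proteins bind AMPA receptor tails. In the hypothalamus, glutamatergic input drives neurons that control feeding, fluid balance and reproduction.

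Library totals ran from 32066289 to 48697647 counts, and mitochondrial genes took 15.8% to 23.6% of them. In the 10 KO libraries Ndn had 0.248 to 1.01 CPM (counts scaled to library size, with TMM factors) and Magel2 had 0 to 0.182 CPM, against 239 to 346 CPM and 15.6 to 19.5 CPM in 9 WT libraries. The library labelled WT_day 3 stood apart with 31.0 CPM of Ndn, 11.3% of the average in the remaining WT libraries, and 2.16 CPM of Magel2, 12.4% of that average. In 6 libraries (KO_night 1, 2 and 3, KO_day 1 and 2, and WT_night 1) the time field contradicts the title, and groups follow the title. All 9 defining hypothalamic markers were present in all libraries, from 5.78 CPM for Otp at the lowest to 343 CPM for Pmch at the highest, while the cortical marker Neurod6 had 0.257 to 1.80 CPM.

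Levels between genes are given as CPM per kb of merged exon length, with CPM per kb of gene span, the distance between a gene's annotated ends, beside it. Both are needed, because coding genes that lie inside another coding gene of the same strand had no count in 99.7% of 371 cases, a pattern that counting over whole gene spans with introns would give. CPM per kb of exon had a Spearman correlation of 0.749 with span over the 36 genes, and CPM per kb of span one of -0.247. The points are genes measured in the same 20 libraries.

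Per kb of exon, Grm7, a presynaptic autoreceptor gene, had the highest level at 101 ± 13.2 (SD, n = 20), followed by the AMPA subunit gene Gria1 at 87.3 ± 7.53, and their ranges over libraries overlapped. Next came Gria4 at 67.6 ± 5.78, the PSD-93 gene Dlg2 at 66.0 ± 7.91, the delta receptor gene Grid1 at 57.0 ± 9.98 and the kainate subunit gene Grik2 at 56.2 ± 5.19. Over the whole order 33 of 35 neighbouring genes overlapped in range, so most ranks next to each other are not separated by these libraries. Grin3b at 0.817 ± 0.132 and Grm6 at 0.00508 ± 0.00551 were set apart at the low end.

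The order per kb of span was another. Dlg4, the gene of PSD-95, led with 5.17 ± 0.302, then Grin1, the obligatory NMDA subunit gene, with 4.64 ± 0.327 and Gria2, whose edited product makes AMPA receptors impermeable to calcium, with 3.77 ± 0.142. Grin1 was apart from Gria2, and Gria2 from Gria1 at 1.65 ± 0.143. Grm7 had 0.647 ± 0.0842, Dlg2 0.545 ± 0.0653 and Grid1 0.445 ± 0.0779 on this scale, well below those 3 genes. Grm7, Dlg2 and Grid1 were thus at ranks 17, 21 and 24 of 36 per kb of span, while Gria1, Gria4 and Grik2 were at ranks 4, 6 and 7. The span counted for Dlg2, and so its rank here, is uncertain. The noncoding gene Gm45159, inside its annotated span on the same strand, had 25383 counts, whereas coding genes placed so mostly had none.

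**Figure D1:**
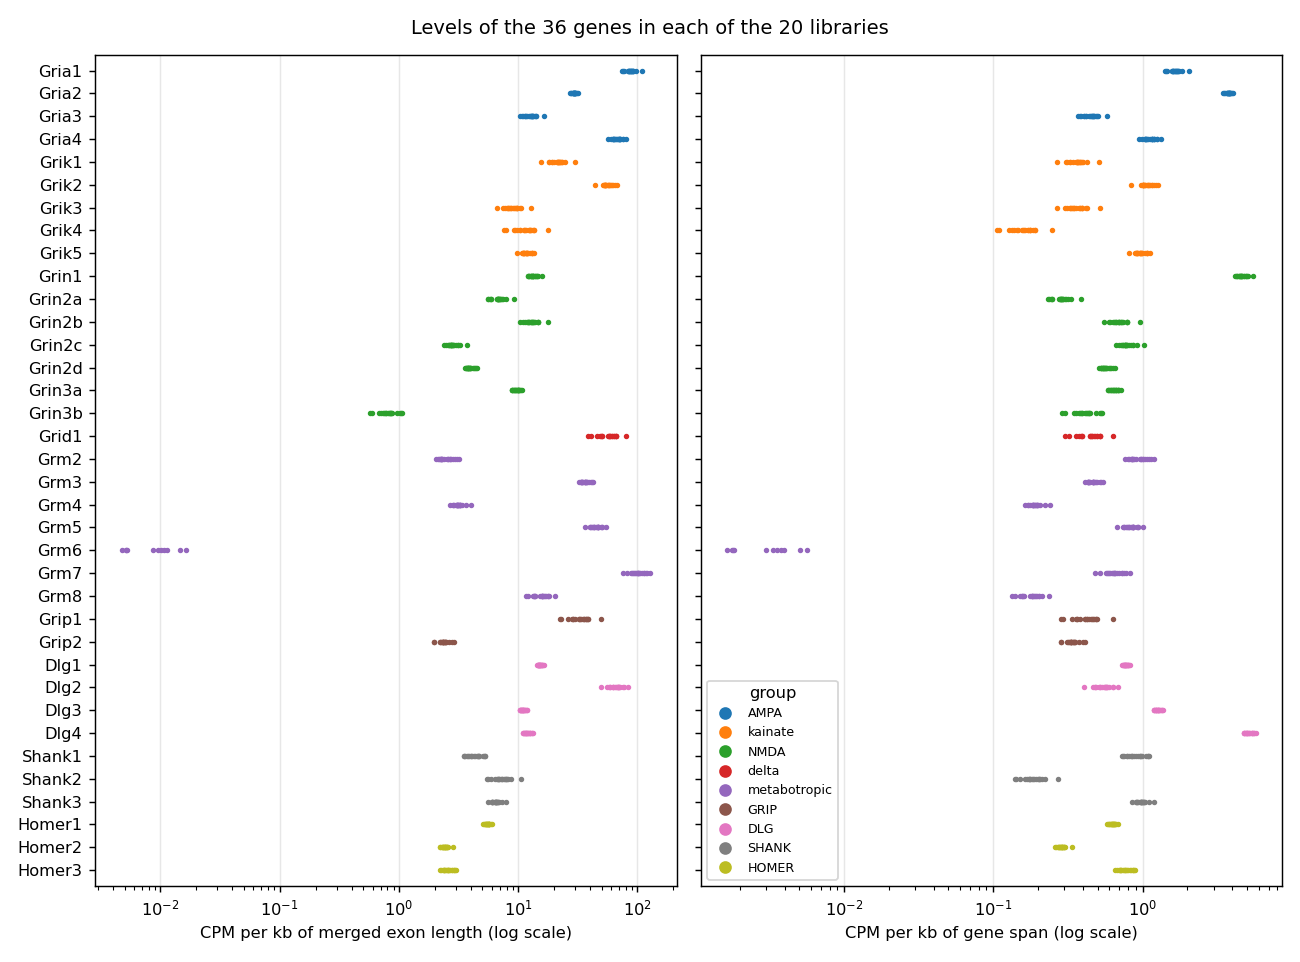
Levels of the 36 genes in each of the 20 libraries, 1 point per library, as TMM-scaled CPM per kb of merged exon length on the left and per kb of gene span on the right, both on log axes and coloured by receptor or scaffold group. Grm7 and Gria1 lie highest on the left with means of 101 and 87.3, while Dlg4 and Grin1 lie highest on the right with means of 5.17 and 4.64; Grm6 libraries with 0 counts cannot be drawn on a log axis.

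Within the AMPA group, Gria1 and Gria4 overlapped per kb of exon, and both were apart from Gria2 at 29.4 ± 1.11 and from Gria3 at 12.7 ± 1.38. The ratio of Gria1 to Gria2 was 2.97 ± 0.242 per kb of exon but 0.440 ± 0.0358 per kb of span, so which of them is higher depends on the length used. Gria3 was lowest of the 4 on both scales. In the kainate group Grik2 was highest on both scales, with 56.2 per kb of exon and 1.07 per kb of span, overlapping Grik5 (0.969) on the second. The genes of the high-affinity kainate subunits, Grik4 and Grik5, had 11.6 and 11.7 per kb of exon.

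Among NMDA genes, Grin1 (13.4 ± 0.945) and Grin2b (13 ± 1.62) overlapped per kb of exon, and Grin3a had 9.68 ± 0.570. Grin2a, the subunit gene that gains on Grin2b during forebrain maturation, had 6.81 ± 0.856, and Grin2d and Grin2c had 3.94 ± 0.270 and 2.83 ± 0.295. The ratio of Grin2a to Grin2b stayed below 1 in each library and on both scales, from 0.482 to 0.579 per kb of exon and from 0.375 to 0.450 per kb of span. It averaged 0.529 ± 0.0319 in KO_night, 0.507 ± 0.0151 in KO_day, 0.507 ± 0.0226 in WT_night and 0.556 ± 0.00750 in WT_day (SD, n = 5 each, per kb of exon). The KO_night libraries, at 0.499 to 0.579, overlapped each of the other groups. The KO_day libraries, at 0.490 to 0.525, and the WT_night libraries, at 0.482 to 0.537, all lay below the WT_day libraries, at 0.547 to 0.564. Per kb of span each library's ratio changes by the same factor, so the order of libraries is the same there by arithmetic. The ratios were not tested. Grin1 against the sum of the 4 Grin2 genes was 0.507 ± 0.0550 per kb of exon and 1.99 ± 0.144 per kb of span.

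Among metabotropic genes, Grm7 was followed per kb of exon by Grm5 at 44.9 ± 4.25 and Grm3, a receptor gene also used by astrocytes, at 36.6 ± 2.80. Grm8 had 15.5 ± 2.20, and Grm4 and Grm2 had 3.16 ± 0.290 and 2.50 ± 0.328. Per kb of span Grm2 came first, at 0.944 ± 0.124, and overlapped Grm5 at 0.836 ± 0.0791. Of the scaffolds, Grip1 exceeded Grip2 per kb of exon, with 33.2 ± 6.24 against 2.38 ± 0.218, but their ranges overlapped per kb of span, at 0.422 and 0.338. Shank2 and Shank3 overlapped at 7.31 ± 1.16 and 6.50 ± 0.493 per kb of exon, with Shank1 at 4.32 ± 0.580, but per kb of span Shank2 was lowest at 0.186, apart from Shank3 at 0.984 and Shank1 at 0.904. Homer1, whose long forms tether group I receptors, was apart from Homer3 and Homer2 per kb of exon, at 5.53 ± 0.238 against 2.58 ± 0.233 and 2.43 ± 0.138. Per kb of span Homer3 came first at 0.771 and overlapped Homer1 at 0.628.

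By group, and per kb of exon with the SD over 5 libraries, the leading gene of each family was as follows. Gria1 had 81.9 ± 5.73 in KO_night, 85.2 ± 5.93 in KO_day, 94.1 ± 9.55 in WT_night and 88.1 ± 2.87 in WT_day. Grik2 had 51.4 ± 4.11 in KO_night, 57.1 ± 5.51 in KO_day, 59.4 ± 5.90 in WT_night and 57.0 ± 1.61 in WT_day. For both of these, KO_night had the lowest and WT_night the highest mean. Grid1 had 47.2 ± 7.30 in KO_night, 56.9 ± 8.57 in KO_day, 63.2 ± 12.1 in WT_night and 60.8 ± 3.32 in WT_day. Grm7 had 88.5 ± 9.40 in KO_night, 103 ± 14.1 in KO_day, 111 ± 14.3 in WT_night and 104 ± 3.50 in WT_day. The same 2 groups were at the ends for the scaffold genes Grip1 and Dlg2. Grip1 had 27.2 ± 4.36 in KO_night, 33.1 ± 5.38 in KO_day, 38.2 ± 7.51 in WT_night and 34.3 ± 1.79 in WT_day. Dlg2 had 58.5 ± 5.80 in KO_night, 66.4 ± 8.08 in KO_day, 70.9 ± 9.30 in WT_night and 68.3 ± 2.27 in WT_day. Shank2, at 6.62 ± 1.18 in KO_night, 7.25 ± 0.896 in KO_day, 8.26 ± 1.49 in WT_night and 7.10 ± 0.430 in WT_day, was lower in KO_night within the spread. Grin1 ran the other way, with 14.5 ± 0.929 in KO_night, 13 ± 0.586 in KO_day, 13.4 ± 0.629 in WT_night and 12.7 ± 0.553 in WT_day. Homer1 was even, with 5.46 ± 0.358 in KO_night, 5.52 ± 0.183 in KO_day, 5.48 ± 0.208 in WT_night and 5.68 ± 0.155 in WT_day.

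The steadiest genes over the 20 libraries were Dlg1, the SAP97 gene, with a coefficient of variation of 3.44%, Gria2 with 3.76%, Dlg3 with 4.18% and Homer1 with 4.31%. Grik4 with 19.9%, Grip1 with 18.8% and Grid1 with 17.5% varied most among the 35 tested genes; Grm6, with 0 to 4 counts, had 108%. Some genes share their locus with a well-counted neighbour on the other strand, so their values are uncertain. Tmem259, which overlaps Grin3b, had 1355% of the counts of Grin3b, Ddx49 had 195% of those of Homer3, Kdelr1 90.5% of those of Grin2d and Grin1os 56.5% of those of Grin1. Overlaps on the same strand leave values uncertain too. Grik2 overlaps 6 other genes and Grin3a overlaps 2, none of them on the other strand.

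At night, receptor and scaffold genes were mostly lower in KO than in WT. Of the 35 tested genes 12 passed an adjusted p under 0.05 (edgeR quasi-likelihood F-test, Benjamini-Hochberg over all 22181 genes): 11 fell and 1 rose, where 11.8% of all tested genes passed, 5.23% rising and 6.55% falling. Those that fell were the AMPA genes Gria1, Gria3 and Gria4, the kainate genes Grik1 and Grik2, the delta gene Grid1, the metabotropic genes Grm5, Grm7 and Grm8, and the scaffold genes Grip1 and Dlg2. Grin2c, the NMDA subunit gene best known from cerebellar granule cells and astrocytes, rose. The median log2 change of the 35 was -0.06, against 0.01 over all tested genes, and 12 were higher and 23 lower. In whole tissue, fewer cells of a type and less RNA per cell cannot be told apart.

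The night calls rest on single libraries. None of the 35 passed without WT_night 1, without WT_night 3, without KO_night 2 or without KO_night 3, and none passed when groups followed the time field or when only libraries with agreeing time labels were used. In the same order, 1.65%, 0.913%, 1.72%, 2.56%, 0.0223% and 0% of all tested genes passed. WT_night 1, KO_night 2 and KO_night 3 are among the libraries whose time field contradicts the title. Agreeing labels left only 2 KO_night and 4 WT_night libraries, so the lack of calls there can also reflect fewer libraries. Leaving out the library labelled WT_day 3 left the 12 in place.

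Promoters of 4 of the genes that passed are shown, 3 that fell (Grip1, Grm8 and Gria4) and Grin2c, which rose, so that a member of each direction can be set side by side. They run from 250 bases before to 50 bases after the annotated start, as RefSeq has them on GRCm38.p6, 5′ to 3′ on the gene's strand. Capitals mark the GC box GGGCGG or its reverse complement CCGCCC.

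Grip1 (chr10:119453784-119454083, plus strand): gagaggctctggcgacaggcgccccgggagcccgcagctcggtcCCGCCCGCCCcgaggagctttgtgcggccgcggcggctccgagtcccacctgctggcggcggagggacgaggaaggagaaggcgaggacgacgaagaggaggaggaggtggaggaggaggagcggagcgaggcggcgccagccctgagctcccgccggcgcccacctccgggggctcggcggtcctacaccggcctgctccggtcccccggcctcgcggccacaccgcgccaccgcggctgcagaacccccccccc
Grm8 (chr6:28135097-28135396, minus strand): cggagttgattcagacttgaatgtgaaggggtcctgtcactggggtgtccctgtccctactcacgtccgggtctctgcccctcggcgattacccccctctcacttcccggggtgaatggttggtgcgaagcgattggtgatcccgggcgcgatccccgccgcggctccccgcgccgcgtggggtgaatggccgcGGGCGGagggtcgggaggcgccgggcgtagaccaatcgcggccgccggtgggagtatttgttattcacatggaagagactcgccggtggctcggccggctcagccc
Gria4 (chr9:4796185-4796484, minus strand): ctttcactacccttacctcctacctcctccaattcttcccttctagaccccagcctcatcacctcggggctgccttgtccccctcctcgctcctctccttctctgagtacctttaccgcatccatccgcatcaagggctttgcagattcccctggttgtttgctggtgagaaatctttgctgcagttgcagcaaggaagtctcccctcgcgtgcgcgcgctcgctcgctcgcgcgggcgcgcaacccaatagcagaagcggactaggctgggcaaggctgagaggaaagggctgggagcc
Grin2c (chr11:115267194-115267493, minus strand): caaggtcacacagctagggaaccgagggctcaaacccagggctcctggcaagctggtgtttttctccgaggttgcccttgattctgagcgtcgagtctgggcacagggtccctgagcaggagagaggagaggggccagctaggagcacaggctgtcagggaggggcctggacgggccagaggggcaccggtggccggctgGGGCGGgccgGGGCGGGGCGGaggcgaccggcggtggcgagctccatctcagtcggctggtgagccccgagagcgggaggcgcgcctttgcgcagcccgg

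Grin2c has 3 such matches, Grip1 has 2, Grm8 has 1 and Gria4 has 0, and G and C make up 70%, 77.3%, 67% and 59.7% of the 4 sequences. The GC box was found on either strand in 35.7% of all 32851 promoters of this length, in 15 of the 25 genes of the list that have an entry, and in 3 of the 6 entries of genes that fell (Grip1, Grm7 and Grm8). The cyclic AMP response half-site TGACG or CGTCA was in 20.8% of all promoters and in 4 of the 25, and the E-box CACGTG in 7.15% and in 2. A match is only a match of letters.

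Of the metabotropic genes, Grm5 (chr7:87584168-88134907, plus strand, GRCm38 as are all gene positions here) had 434, 369, 411, 428 and 444 CPM in the 5 KO_night libraries, against 513, 471, 555, 446 and 504 CPM in the 5 WT_night libraries. The groups did not overlap, though the highest KO_night and the lowest WT_night value are close. No other tested gene of the list had groups apart at night, where 5.06% of all tested genes did. Grm5 fell by 0.26 on the log2 scale (SE 0.06, adjusted p = 0.0194), 1.19-fold lower.

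Grm8 (chr6:27275119-28135178, minus strand), a presynaptic receptor gene, had 134, 115, 120, 156 and 136 CPM in KO_night and 181, 163, 202, 138 and 175 CPM in WT_night. Only KO_night 4 lay inside the range of WT_night. The log2 change was -0.38 (SE 0.09, adjusted p = 0.0222). Grm7 (chr6:110645581-111567230, plus strand) had 550, 445, 481, 572 and 556 CPM in KO_night and 690, 597, 756, 540 and 670 CPM in WT_night. Here 3 KO_night libraries lay above the lowest WT_night library, and the log2 change was -0.32 (SE 0.09, adjusted p = 0.0290).

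Grip1 (chr10:119453830-120087261, plus strand), the scaffold gene that links AMPA receptors to trafficking motors, had the lowest log2 change of the list, -0.49 (SE 0.14, adjusted p = 0.0314). Its values were 243, 181, 184, 260 and 227 CPM in KO_night and 310, 307, 400, 232 and 290 CPM in WT_night. KO_night 1 and 4 lay inside the WT_night range. Dlg2 (chr7:90476672-92449247, plus strand), whose protein PSD-93 anchors NMDA receptors, had 1017, 805, 913, 1024 and 1007 CPM in KO_night and 1243, 1081, 1356, 962 and 1129 CPM in WT_night. Its log2 change was -0.28 (SE 0.08, adjusted p = 0.0376), with 3 KO_night libraries above the lowest WT_night library.

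Among AMPA genes, Gria3 (chrX:41400854-41678601, plus strand) had 115, 103, 108, 113 and 126 CPM in KO_night and 140, 131, 161, 116 and 136 CPM in WT_night, with only KO_night 5 inside the WT_night range. It fell by 0.28 on the log2 scale (SE 0.07, adjusted p = 0.0228). Gria4 (chr9:4417896-4796234, minus strand) had 378, 358, 395, 408 and 398 CPM in KO_night and 475, 425, 502, 400 and 450 CPM in WT_night, with only KO_night 4 inside. Gria4 fell by 0.22 (SE 0.06, adjusted p = 0.0247). Gria1 (chr11:57011387-57330244, plus strand) averaged 495 ± 34.6 CPM in KO_night and 569 ± 57.7 CPM in WT_night (SD, n = 5 each) and fell by 0.20 (SE 0.06, adjusted p = 0.0370). Gria2, the remaining AMPA gene and much shorter than those 3, had a log2 difference of -0.06 (SE 0.04, adjusted p = 0.416).

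The kainate gene Grik1 (chr16:87895900-88290265, minus strand) averaged 128 ± 16.5 CPM in KO_night and 160 ± 25.5 CPM in WT_night, a log2 change of -0.31 (SE 0.10, adjusted p = 0.0433). Grik2 (chr10:49094833-49788766, minus strand) averaged 681 ± 54.5 CPM in KO_night and 787 ± 78.1 CPM in WT_night, a log2 change of -0.21 (SE 0.07, adjusted p = 0.0449). Grid1 (chr14:34820108-35583379, plus strand), which binds cerebellins across the synapse, averaged 281 ± 43.5 CPM in KO_night and 377 ± 72.4 CPM in WT_night, a log2 change of -0.42 (SE 0.13, adjusted p = 0.0435). For these 3 genes the groups overlapped. Grik4 just missed, at -0.48 (SE 0.15, adjusted p = 0.0506), and Grik3 had -0.28 (SE 0.12, adjusted p = 0.114).

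Grin2c (chr11:115249169-115267243, minus strand), the gene that rose, had 15.7, 15.2, 16.5, 18.6 and 13.7 CPM in KO_night and 13.9, 13.9, 14.1, 12.9 and 13.1 CPM in WT_night. All KO_night libraries but KO_night 5 were above the WT_night range, and the log2 change was 0.23 (SE 0.07, adjusted p = 0.0383). Grin2c also did not pass without WT_night 2, 4 or 5, or without KO_night 1 or 4. With all libraries no other NMDA gene passed. Grin2b had -0.25 (SE 0.09, adjusted p = 0.0660), Grin2a -0.19 (SE 0.10, adjusted p = 0.209), Grin1 0.12 (SE 0.05, adjusted p = 0.114) and Grin3b 0.36 (SE 0.13, adjusted p = 0.0622). No Shank or Homer gene passed, and their log2 differences ran from -0.32 for Shank2 (SE 0.13, adjusted p = 0.0995) to 0.18 for Homer3 (SE 0.08, adjusted p = 0.127). Dlg4 had 0.11 (SE 0.05, adjusted p = 0.118).

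In all 11 genes that fell, WT_night 3 was the highest and WT_night 4 the lowest of the WT_night libraries, and KO_night 2 was the lowest of the KO_night libraries. The WT_day libraries lay close together in each of them. Thus the same libraries order the values of AMPA, kainate, metabotropic and scaffold genes alike.

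**Figure D2:**
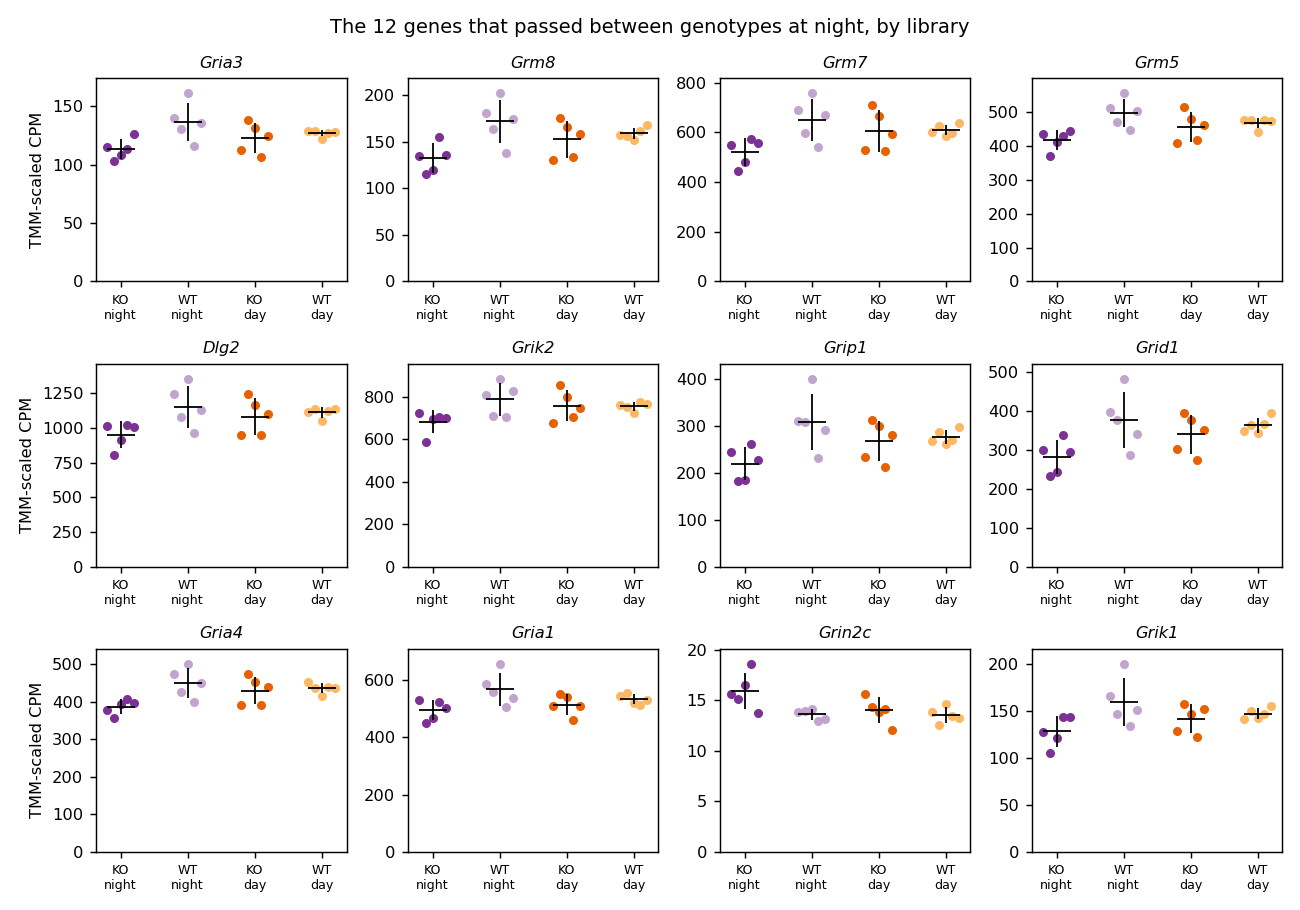
TMM-scaled CPM of the 12 genes that passed between genotypes at night, 1 panel per gene, with 1 point per library in KO_night, WT_night, KO_day and WT_day; the horizontal line is the mean and the vertical line the SD (n = 5). Only in the Grm5 panel are the KO_night values, 369 to 444, all below the WT_night values, 446 to 555, and Grin2c is the only gene with a higher mean in KO_night, 15.9 against 13.6.

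The genes that fell share their length. All 7 tested genes of the list that span over 500 kb fell at night, and so did 62.6% of the 235 tested genes of that size. Of the 8 that span 250 to 500 kb, 4 fell, and of all 559 tested genes of that size 44.5% fell. None of the 7 between 100 and 250 kb fell, where 21.1% of 1907 genes did, and none of the 8 between 30 and 100 kb passed, where 6.9% of genes fell and 2.87% rose. The 5 genes of up to 30 kb had a median log2 difference of 0.22, and 1 of them, Grin2c, rose, where 7.04% of 14155 genes did. Read against these shares, the falls among genes over 250 kb, 11 of 15, stand beside 49.9% of all 794 tested genes over 250 kb.

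Over the 35 genes the log2 difference at night had a Spearman correlation of -0.908 with span, against -0.335 over 22149 tested genes with a span, all measured in the same libraries. The longest gene, Dlg2 at 1973 kb, was not the one with the lowest log2 change. Grip1 at 633 kb and Grik4 at 426 kb were both lower than the middle of their size class, whose median was -0.30 for genes over 500 kb and -0.24 for genes of 250 to 500 kb.

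**Figure D3:**
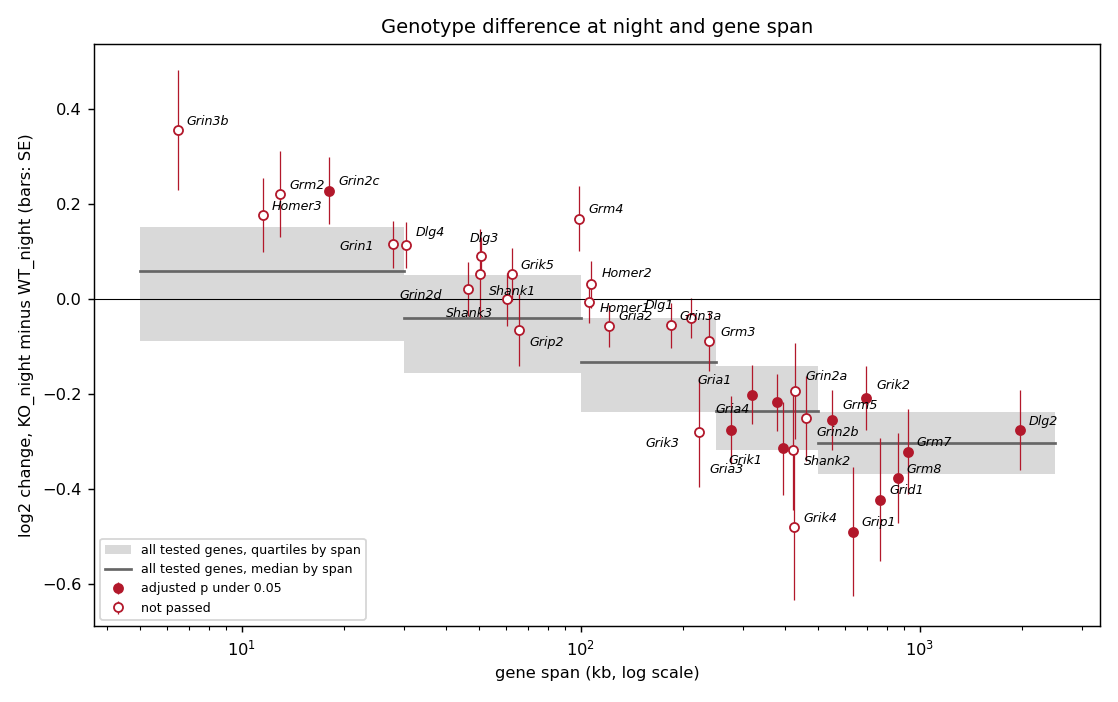
Log2 difference between KO_night and WT_night (with SE) against gene span in kb on a log axis, for the 35 tested genes; filled points passed an adjusted p under 0.05, and the grey boxes and lines give the quartiles and median of all tested genes in 5 span classes. The 7 genes over 500 kb are all filled and lie between -0.49 and -0.21, and Grin2c, at 18 kb, is the only filled point above 0.

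Length moved with the library as well as with the group. Over 17568 genes outside the list, the change in log2 CPM per unit of log10 span, relative to the mean of all libraries, ran from -0.126 to -0.0186 in KO_night, -0.0717 to 0.0757 in KO_day, -0.0274 to 0.158 in WT_night and -0.0232 to 0.00968 in WT_day. The median deviation of the 15 tested list genes over 250 kb followed these slopes. It was lowest in KO_night 2 at -0.37, KO_night 3 at -0.28 and KO_day 4 at -0.22, and highest in WT_night 3 at 0.41, WT_night 1 at 0.22 and KO_day 2 at 0.17. Long genes were thus low or high in single libraries of both genotypes at night and of KO by day. In WT_day their median deviation ran only from -0.02 to 0.09.

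The median deviation of the 13 tested list genes of up to 100 kb was positive in all 5 KO_night libraries, at 0.01 to 0.24 on the log2 scale. Single genes among them could still lie below their own mean. KO_night 4 was the highest of these, and it also had the lowest mitochondrial share, 15.8%, whose part was not tested. What part the length trend has in the night result was not tested. The trend was removed in a further fit, with a curve drawn over all tested genes, list genes included. That takes out any group difference that moves with span, whatever its source, so it cannot decide this.

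**Figure D4:**
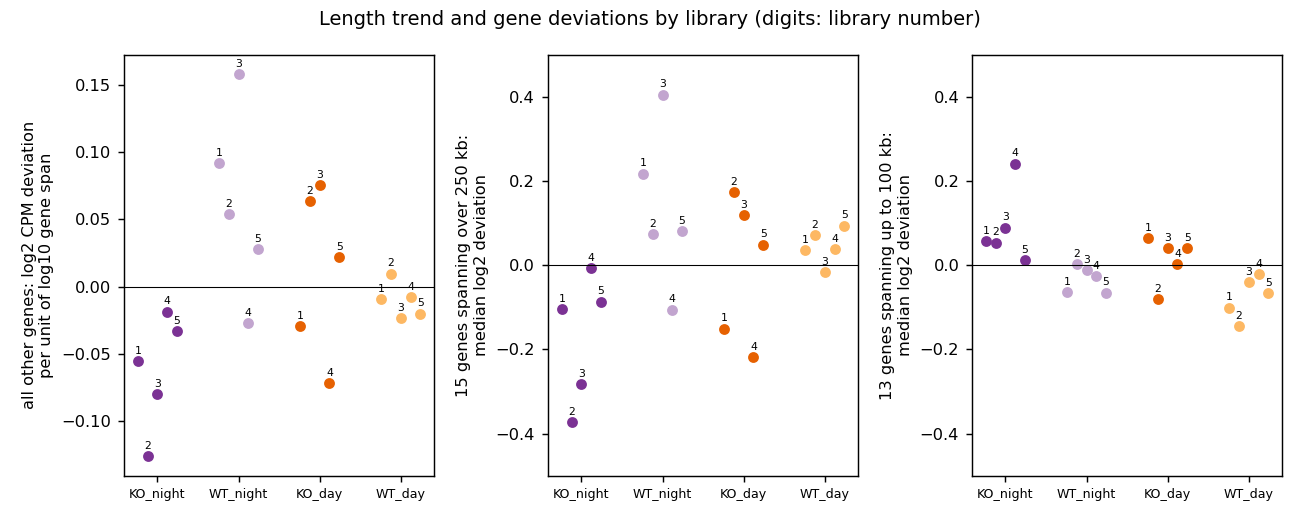
Per library, from left to right: the slope of log2 CPM deviation per unit of log10 gene span over 17568 genes outside the list, the median log2 deviation of the 15 list genes over 250 kb, and that of the 13 list genes of up to 100 kb; digits are library numbers. KO_night 2 and WT_night 3 lie at the low and high ends of the first 2 panels, with -0.126 and 0.158 and with -0.37 and 0.41.

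With each library's trend over span taken out before the fit, 2 of the 35 genes passed at night, where 5.71% of all tested genes did. Grip1 fell, by 0.20 on the log2 scale (SE 0.05, adjusted p = 0.0300). Grm4, a presynaptic receptor gene of 99 kb, rose, with a log2 change of 0.26 (SE 0.07, adjusted p = 0.0280). Grm4 had 19.6, 19.5, 19.6, 23.8 and 18.3 CPM in KO_night and 17.9, 16, 18.3, 18.4 and 19.1 CPM in WT_night, and without that correction its log2 difference was 0.17 (SE 0.07, adjusted p = 0.0994). Of the 11 genes that had fallen, 6 then had log2 differences above 0, among them Dlg2 at 0.12 and Grik2 at 0.09. The median of the 35 was then 0.06, with 26 higher and 9 lower. When replicate number was added to that fit, Grm4 still passed and Grip1 did not.

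By day, none of the 35 genes passed between KO and WT, where 0.194% of all tested genes did. An unadjusted p under 0.05 was found for 4 of the 35 and for 2099 of all 22181 tested genes. Shank1, a scaffold gene of the postsynaptic density, came nearest. It had 48.3, 41.9, 53.2, 47.2 and 55.4 CPM in KO_day and 37.8, 36.9, 37.1, 44.4 and 40.6 CPM in WT_day. Only KO_day 2 lay inside the range of WT_day, and the log2 difference was 0.32 (SE 0.09, adjusted p = 0.194). With DESeq2 Shank1 passed by day, as did 0.501% of 37290 genes, at 0.33 (SE 0.09, adjusted p = 0.0436). Shank1 also passed among libraries with agreeing time labels, as did 0.473% of 22820 genes, at 0.40 (SE 0.09, adjusted p = 0.0463). The DESeq2 base includes low-count genes that the edgeR fits leave out, so shares from the 2 methods are not alike.

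Grik5, the gene of a kainate subunit with high affinity for the agonist, had 61.6, 61.0, 67.1, 60.4 and 64.9 CPM in KO_day and 51.0, 56.6, 55.3, 58.1 and 57.7 CPM in WT_day. The groups did not overlap, as in 2.72% of all tested genes. The log2 difference by day was 0.18 (SE 0.06, adjusted p = 0.227). At night it was 0.05 (SE 0.06, adjusted p = 0.558).

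Averaged over both times, none of the 35 passed, where 1.57% of all tested genes did. An unadjusted p under 0.05 was found for 20 of the 35 and for 4293 of all 22181 tested genes. Lowest was the adjusted p of Grm2, a presynaptic autoreceptor gene, at 0.0798 with a log2 difference of 0.21 (SE 0.06). Grm2 had 10.8, 13.9, 14.9, 15.6 and 12.7 CPM in KO_night, 12.7, 10.5, 13, 14.4 and 13 CPM in KO_day, 11, 11.3, 9.95, 13.4 and 12.5 CPM in WT_night and 11.1, 10.4, 11.3, 11.7 and 11 CPM in WT_day. The ranges overlapped at both times. DESeq2 passed Grm2 at 0.21 (SE 0.07, adjusted p = 0.0365) along with Grm5, Grm8 and Gria3, which fell, and 2.82% of all genes. Without WT_night 4 edgeR passed 9 of the 35 genes and 5.84% of all tested genes, and without KO_day 2 it passed 4 and 4.35%.

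Night against day, none of the 35 genes passed in WT, in KO or averaged over the genotypes, where 0.302%, 0.275% and 0.126% of all tested genes did. In the same order, 5, 9 and 4 of the 35 had an unadjusted p under 0.05, and 3484, 3858 and 2561 of all 22181 tested genes did. These contrasts share libraries with those between genotypes. In WT 31 of the 35 were higher at night, with a median log2 difference of 0.09, and in KO 12 were, with a median of -0.02. The 15 over 250 kb had medians of 0.09 in WT and -0.15 in KO. All 794 tested genes of that size had 0.10 and -0.16. With the span trend removed, 19 of the 35 were higher in WT, with a median of 0.01, and 26 in KO, with a median of 0.04. Shank3, a scaffold gene, had 59.9, 59.7, 66.8, 61.6 and 61.5 CPM in WT_night and 55.0, 51.4, 55.8, 59.5 and 55.1 CPM in WT_day. Its groups did not overlap, as in 5.32% of all tested genes, but the lowest WT_night and highest WT_day value nearly met, and the log2 difference was 0.16 (SE 0.06, adjusted p = 0.169).

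Grin3a, an NMDA subunit gene that lowers calcium entry, had 123, 122, 133, 122 and 126 CPM in WT_night and 117, 118, 114, 110 and 109 CPM in WT_day, also without overlap (0.14, SE 0.05, adjusted p = 0.167). In KO, Grin1 had 128, 140, 139, 153 and 143 CPM at night and 125, 118, 126, 130 and 133 CPM by day. Only KO_night 1 lay inside the range of KO_day, and the log2 difference was 0.15 (SE 0.05, adjusted p = 0.126). DESeq2 passed it (0.15, SE 0.05, adjusted p = 0.0487), with 1.56% of all genes.

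The difference between the night and day effects of genotype, the interaction, passed for none of the 35 genes, where 0.167% of all tested genes passed. So a fall at night without one by day is not shown to differ between the times for any of the 11 genes. An unadjusted p under 0.05 was found for 10 of the 35 and for 4809 of all 22181 tested genes. Grin3b was nearest, with 3.49, 3.15, 2.83, 3.34 and 2.49 CPM in KO_night, 2.47, 2.34, 1.88, 2.84 and 2.75 CPM in KO_day, 1.97, 2.55, 2.25, 2.44 and 2.80 CPM in WT_night and 2.56, 2.66, 3.43, 2.89 and 2.72 CPM in WT_day. Its interaction was 0.57 (SE 0.18, adjusted p = 0.0857), and DESeq2 passed it (0.57, SE 0.19, adjusted p = 0.0415), with 3.28% of all genes. Tmem259 on the other strand limits what Grin3b counts can show.

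**Figure D5:**
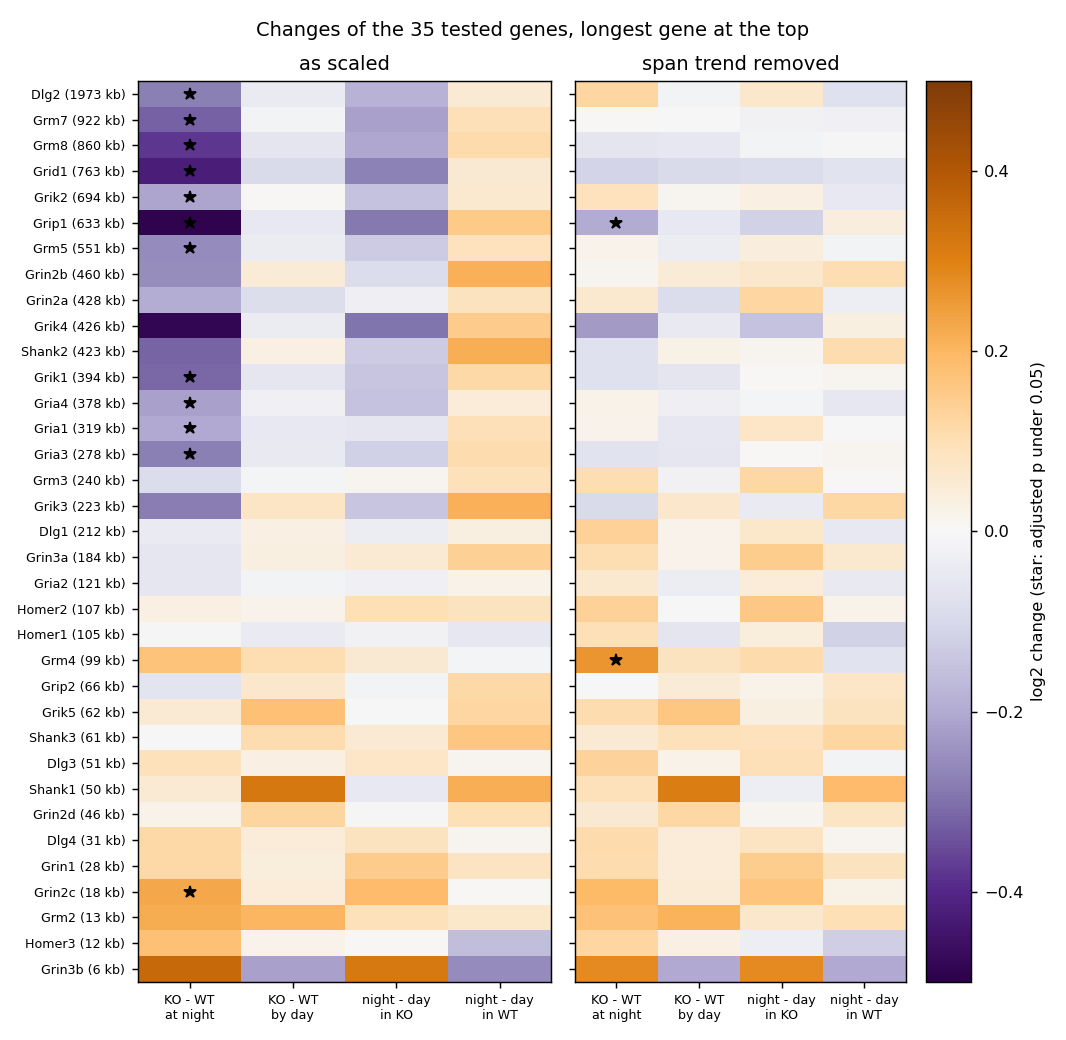
Log2 differences of the 35 tested genes, longest span at the top, for KO against WT at night and by day and for night against day in KO and in WT, on the left as scaled and on the right with the span trend of each library removed; orange is higher, purple lower, and a star marks an adjusted p under 0.05. The 12 stars of the left night column are replaced on the right by 2, Grip1 at -0.20 and Grm4 at 0.26.

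Other synaptic genes were read from the same fit, where 11.8% of all tested genes passed at night, 5.23% rising and 6.55% falling. Of 14 AMPA and kainate auxiliary subunit genes at night, Cnih2, a cornichon that helps AMPA receptors leave the endoplasmic reticulum, rose (0.21, SE 0.07, adjusted p = 0.0375) and Shisa9 fell (-0.40, SE 0.10, adjusted p = 0.0240). Among 17 tested genes of other postsynaptic density proteins, Nsf rose (0.14, SE 0.05, adjusted p = 0.0432) and Dlgap1 (-0.32, SE 0.09, adjusted p = 0.0343) and Lrrc7 (-0.24, SE 0.07, adjusted p = 0.0314) fell. Dlgap1 protein binds PSD-95. The genes that fell are long, at 287 kb for Shisa9, 852 kb for Dlgap1 and 479 kb for Lrrc7. Cnih2, which rose, spans 5.65 kb, and the span of Nsf, which also rose, is not given here.

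Of 15 adhesion and organiser genes, 4 fell at night, where 6.55% of all tested genes did: the neurexin gene Nrxn3, the neuroligin gene Nlgn1, and Lrrtm3 and Lrrtm4. Of the 15, 10 were higher and 5 lower, with a median log2 difference of 0.04. Nptxr rose, at 0.18 (SE 0.05, adjusted p = 0.0322). Averaged over both times, where 1.57% of all tested genes passed, Nlgn2 (0.20, SE 0.05, adjusted p = 0.0259), Nptxr (0.20, SE 0.04, adjusted p = 0.00827) and Nrxn2 (0.18, SE 0.04, adjusted p = 0.0238) rose. None of the 8 glutamate transport genes passed at night, with a lowest adjusted p of 0.0678. Of 9 activity-induced genes, Arc rose at night in KO (0.32, SE 0.09, adjusted p = 0.0247). Fosb fell by day in KO (-0.99, SE 0.20, adjusted p = 0.0292), where 0.194% of all tested genes passed. Fosb also fell at night relative to day in WT (-1.78, SE 0.22, adjusted p = 0.000135), where 0.302% passed.

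Markers of cell types and regions were compared between the night groups, where 5.23% of all tested genes rose and 6.55% fell. The summed level of 9 hypothalamic markers was 955 to 1166 CPM in KO_night and 700 to 916 CPM in WT_night, with Oxt and Avp rising. Oligodendrocyte markers (6) summed to 2086 to 2805 CPM in KO_night and 1931 to 2390 CPM in WT_night, with Mag, Cnp and Mobp rising. Neuron markers (8) summed to 3029 to 3343 CPM in KO_night and 3037 to 3264 CPM in WT_night, where Gad1 rose, the other 6 tested did not pass, and Tubb3 was at 0 in all libraries. Of the marker sums only the hypothalamic ones did not overlap at night, and 5.06% of single tested genes did not overlap either. Thalamic markers (5) summed to 298 to 416 CPM in KO_night and 364 to 631 CPM in WT_night, most of it from Rora, which fell and spans 734 kb. Astrocyte markers (6) summed to 760 to 891 CPM in KO_night and 715 to 878 CPM in WT_night, with Aldh1l1 rising. Oligodendrocyte precursor markers (5) summed to 190 to 200 CPM in KO_night and 161 to 194 CPM in WT_night, with Cspg4 rising. Microglial markers (5) overlapped too, at 157 to 164 CPM in KO_night and 158 to 168 CPM in WT_night, with P2ry12 falling. No endothelial, cortical or striatal marker passed, and their sums overlapped. The part of these markers in the changes of the receptor and scaffold genes was not tested.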

How the data were processed

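Counts per gene were deposited by the authors as 1 table per library, made with HISAT2, featureCounts and the mm10 build, per the submitters' processing notes; versions, annotation release and strand setting are not given in the sources used here. Libraries are strand-specific, per the labels. The values were used as raw counts. All 53801 rows carry a gene identifier, and 53706 matched GENCODE M21 (GRCm38), which gave symbols, positions and lengths. Coding genes inside a coding gene of the same strand had no count in 99.7% of 371 cases, against 5.43% of 534 inside one on the opposite strand and 10.1% of 17282 that overlap none. Counts may therefore include introns, and overlapping genes are uncertain.

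The title gave each library's time, except for KO_day 5, where only the time field gives it; the title of WT_day 5 repeats a number. Library pairs within a group differed by more than sampling noise (chi-square per degree of freedom 5.58 to 53.7 over 40 pairs). Genes were tested with edgeR 4.0.16 in R 4.3.3 (robust quasi-likelihood F-test, TMM scaling, minimum count 10) in 1 fit of 4 group means to 20 libraries, with 7 contrasts and Benjamini-Hochberg adjustment over 22181 genes at 0.05. The common biological coefficient of variation was 0.0918. The procedure was tested on simulated counts. Levels are CPM scaled by TMM factors and their precision is given as the SD over libraries. Reads carry no molecular identifiers, so counts are not independent molecules. The span trend was a lowess curve (span fraction 0.3) of each library's log2 CPM (prior count 2) deviation over log gene span, entered as an offset. DESeq2 1.42.0 was an alternative, as were other scaling, no filter, the time field, and leaving out each library. DESeq2 shares are over 37290 genes with a p-value. Its own filter can leave low-count genes among them without an adjusted p, which lowers these shares. All 36 genes are accounted for: those that passed any contrast are given in full, and so is the gene with the highest level in each receptor or scaffold group. Genes near the threshold that are described with values, and Grm4, were chosen after their values were seen. The genes and lists were chosen with earlier results of these data known. Results for part of the list of adhesion genes are not reported here.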

Additional observations from a re-analysis of the deposited data

Results flagged for a closer look

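Single libraries that lie far from the other 4 of their group were looked for in 140 groups of 5 libraries, by the gap to the nearest library as a share of the group's range (Dixon's 95% limit, 0.71), and 7 were found; chance alone gives about 1 in 20 groups. Grik2 had 585 CPM in KO_night 2, against 696 to 721 CPM in the other KO_night libraries. KO_night 4 was the highest of its group for 3 genes, Grin2d at 30.2 CPM (others 25.2 to 26.5), Grm4 at 23.8 CPM (others 18.3 to 19.6) and Homer2 at 35.9 CPM (others 30.1 to 31.7). The library labelled WT_day 3 was the lowest of its group for Grm3 at 103 CPM (others 111 to 112) and Grm5 at 441 CPM (others 474 to 476). Shank3 had 66.8 CPM in WT_night 3, against 59.7 to 61.6 CPM in the other WT_night libraries. Of these, Grm5 and Grik2 are among the genes that fell at night.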

How the results depend on the processing

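At night, 13 genes passed with DESeq2's size factors in edgeR, 16 with DESeq2, 12 without robust dispersion, 7 without the filter on low counts, 2 with the span trend removed and 2 with it removed and WT_day 3 left out (this and the fit without robust dispersion were chosen after seeing the data). In the same order, 11.7%, 9.42%, 11.9%, 4.86%, 5.71% and 4.73% of all tested genes passed. None passed with the time field, with libraries whose time labels agree, or without WT_night 1, 2 and 3 together, where 5, 0 and 11 of all tested genes passed, against 2612. Replicate numbers did not pair libraries (deviations of same-numbered libraries correlated at -0.167 to 0.303), and 4 of 20 libraries correlated best with their own number. With the replicate block 6 genes passed at night, where 7.58% of all tested genes passed. With the block and the trend removed 1 did, Grm4, where 3.25% of all tested genes passed, and Grip1 did not pass. Over the fits that leave out 1 library, 0 to 17 passed at night (0 without WT_night 1, WT_night 3, KO_night 2 or KO_night 3), 0 to 9 averaged over both times (9 without WT_night 4, 4 without KO_day 2, 1 without KO_night 1 or 4), 0 to 3 for the interaction (3 without WT_night 4) and 0 in the other contrasts. Of all tested genes, 204 to 4395 passed at night, 82 to 1307 averaged over both times and 0 to 1609 for the interaction. Without WT_night 4 these were 19.6%, 5.84% and 7.19% of all tested genes.

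Averaged over both times, 4 genes passed with DESeq2, 1 with the trend removed (Grik5, 0.14) and 2 with the trend removed and the block. Of all tested genes 2.82%, 1.98% and 1.46% passed there. By day 1 passed with DESeq2, 1 with agreeing time labels and 1 with the trend removed and the block, where 0.501%, 0.473% and 0.379% passed. With DESeq2 1 passed for night against day in KO and 1 for the interaction, where 1.56% and 3.28% passed. With the trend removed, alone, with the block and without WT_day 3 in turn, log2 differences at night turned positive for Grm7 (0.0022, 0.0026 and 0.0018), Grm5 (0.018, 0.019 and 0.017), Dlg2 (0.123, 0.124 and 0.122), Grik2 (0.087, 0.088 and 0.087), Gria4 (0.021 in each) and Gria1 (0.019 in each). The cause was not tested.

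Per kb of span and, per kb of exon, with mitochondrial genes left out of the totals, levels were 1.65 and 111 for Gria1, 1.07 and 71.2 for Grik2, 4.64 and 17 for Grin1, 0.445 and 72.2 for Grid1, 0.647 and 128 for Grm7, 0.422 and 42.0 for Grip1, 0.545 and 83.6 for Dlg2, 0.186 and 9.25 for Shank2 and 0.628 and 7.01 for Homer1. Per kb of span the ratios were 0.408 for Grin2a to Grin2b, 0.440 for Gria1 to Gria2, 0.681 for Gria4 to Gria1 and 1.99 for Grin1 to the Grin2 sum. Depth limits Grm6 and, less so, Grin3b.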
